A study of Mus musculus with 7 samples.

Results

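A group of 10 genes of fibroblast growth factor (FGF) signaling was followed through the sequencing comparison of the study: the ligand gene Fgf10, the receptor genes Fgfr1, Fgfr2 and Fgfr3, the feedback inhibitor genes Spry1, Spry2, Spry4 and Dusp6, and the transcription factor genes Etv4 and Etv5. They were taken from a list of names, with no threshold on measured values. All 10 were found among the 32285 genes of the deposited counts, and all 10 were among the 17155 genes with enough counts to be tested. The libraries came from explants of the utricle, a balance organ of the inner ear, taken from wild-type mice at postnatal day 2 (P2), which the methods give as C57BL/6J. Every explant was damaged with 2 mM gentamicin, an antibiotic that kills hair cells, for 24 h. The Gent+Fos OE group (4 libraries) also received the viral vector AAV-PHP.eB carrying Fos for 48 h, and the Gent group (3 libraries) is labelled gentamicin control. Tissue was collected on day 5 after injury, and each library pooled 12 utricles, so replicates are pools and not animals. No undamaged group is part of this comparison, so neither group shows the level before injury. The labels name no virus for the Gent utricles, but the letters sh appear in the names under which their counts were deposited and may denote a short hairpin RNA. The paper's legend for this sequencing names the compared group both Gent-control and control AAV group. A Gent group without virus, with a control virus or with a knockdown vector cannot be told apart from these sources, so each difference below is read against Gent as labelled.

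FGF ligands bind receptor tyrosine kinases at the cell surface together with heparan sulfate, and the receptors pass the signal through RAS and RAF to the kinase ERK. ERK activity turns on genes that report and restrain it. The Sprouty proteins, made from the Spry genes, act as inhibitors upstream of ERK, and the phosphatase made from Dusp6 removes the activating phosphates from ERK in the cytoplasm. The ETS factors Etv4 and Etv5 carry the signal to target genes. In the inner ear, FGF10 takes part in the early formation of the organ and of its sensory patches, FGFR1 in the growth of sensory progenitors, and FGFR3 in the fate of supporting cells in the cochlea. Fos is itself a gene that ERK signaling induces, and its protein is a subunit of the transcription factor AP-1.

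Promoter stretches of 2 genes are shown because ETS factors bind sites built around the core GGAA, and Dusp6 and Spry2 are feedback genes of this pathway. Each stretch is the 250 bases before the start of the gene, from RefSeq on GRCm38.p6 (mm10), printed 5′ to 3′ on the strand of the gene. Capitals mark GGAA, or TTCC where the core lies on the other strand. The Dusp6 stretch is chr10:99262981-99263230 on the plus strand and holds 6 cores, and the Spry2 stretch is chr14:105896820-105897069 on the minus strand and holds 3.
Dusp6: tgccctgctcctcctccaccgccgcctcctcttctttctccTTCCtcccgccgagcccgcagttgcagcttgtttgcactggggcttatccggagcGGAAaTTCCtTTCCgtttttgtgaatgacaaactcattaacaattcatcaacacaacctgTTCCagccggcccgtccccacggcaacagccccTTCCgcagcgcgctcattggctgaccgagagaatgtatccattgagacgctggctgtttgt
Spry2: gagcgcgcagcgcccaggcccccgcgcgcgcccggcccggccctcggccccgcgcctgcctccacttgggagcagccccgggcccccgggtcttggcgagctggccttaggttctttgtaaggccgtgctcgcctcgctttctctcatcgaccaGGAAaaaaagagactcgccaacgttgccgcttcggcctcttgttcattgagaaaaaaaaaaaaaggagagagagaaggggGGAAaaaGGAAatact
RefSeq promoter windows of 300 bases (250 before to 50 after the start) were at hand for 7 of the 10 genes, 9 windows in all, with 2 each for Fgfr3 and Etv5. The core GGAA, read on both strands and chosen after the sequences were seen, lay in 8 of the 9 windows and in 96% of the 32851 windows of all genes. The longer ETS motif CCGGAAG lay in 0 of the 9 windows and in 8.86% of all windows. The AP-1 motif TGANTCA, also read on both strands, lay in 0 of the 9 and in 7.81% of all. No binding was measured at these windows in the counts analysed here.

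The libraries held 27879889 to 34335214 counts on genes. Levels are given as CPM, counts scaled to library size and normalized by TMM, a unit that compares 1 gene between libraries but not 1 gene with another. Fos, the overexpressed gene, stood at 151, 151, 167 and 149 CPM in Gent+Fos OE replicates 1 to 4 and at 39.5, 40.6 and 34.6 CPM in Gent, as their labels say (log2 fold change 2.01, SE 0.13, adjusted p = 0.000142 in edgeR's quasi-likelihood test). Each library's deviation from the mean of all libraries was correlated with gene length across genes (Spearman). The correlation was 0.36, 0.33, 0.24 and 0.15 in Gent+Fos OE replicates 1 to 4. In Gent replicates 1 to 3 it was 0.17, -0.52 and -0.22. Gent replicate 2 thus stood apart, and all Gent+Fos OE values were positive. Taking this trend out can also take out a group difference that follows gene length, which was not tested. Markers of the labelled tissue were present in both groups. The summed level of 13 supporting cell markers was 2880 to 3770 CPM in Gent+Fos OE and 2160 to 2690 CPM in Gent, with 8 of 13 higher, a median log2 fold change of 0.08 and 1 called. The called gene was Otog, of the membrane over the sensory patches, at 1060 ± 256 CPM against 447 ± 17.6 CPM, while Sox2 stood at 97.8 ± 8.83 CPM against 92.7 ± 15 CPM. Hair cell markers summed to 753 to 953 and 655 to 824 CPM, with 6 of 12 tested markers higher, and Ocm was too low to be tested. Macrophage markers were lower in 8 of 9 cases, with 916 to 1530 CPM in Gent+Fos OE against 1660 to 2030 CPM in Gent. Melanocyte markers were lower in 7 of 7, with 46.8 to 52.4 CPM against 90.5 to 129 CPM, and 2 of them were called. Mesenchyme markers summed to 6750 to 10200 and 8280 to 12200 CPM, epithelial markers to 2090 to 3230 and 1670 to 2280 CPM. Markers of glia (374 to 407 and 367 to 449 CPM), endothelium (129 to 175 and 141 to 206 CPM) and neurons (76.9 to 99.4 and 68.1 to 83.1 CPM) overlapped between the groups. The part of these cell types in the values of the FGF genes was not tested. Explants hold many cell types, and counts from whole tissue cannot separate fewer cells of a type from less RNA per cell.

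None of the 10 genes was called different between Gent+Fos OE and Gent. The call needed both an absolute log2 fold change over 0.25 and a p from edgeR's quasi-likelihood test that stayed under 0.01 after Benjamini-Hochberg adjustment, and 0.414% of all tested genes met it. At an adjusted p under 0.05, 0 of 10 passed, against 1.86% of all tested genes. Fgfr1 alone had an unadjusted p under 0.05 (1 of 10, against 24.5% of all tested genes). Of the 10 genes, 5 had higher means in Gent+Fos OE and 5 had lower means, and the median log2 fold change was 0.05, against 0.00 over all tested genes. That median was -0.04 without Gent replicate 2, 0.15 without Gent replicate 1, 0.11 without Gent replicate 3, 0.01 without Gent+Fos OE replicate 2, 0.08 without replicate 3 and 0.1 without replicate 4. DESeq2 called 0 of the 10 (2.86% of all genes it tested), with 2 at an unadjusted p under 0.05 (23.1%). Between 4 and 3 libraries the exact permutation test has 35 splits and cannot go below p = 0.0286.

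**Figure D1:**
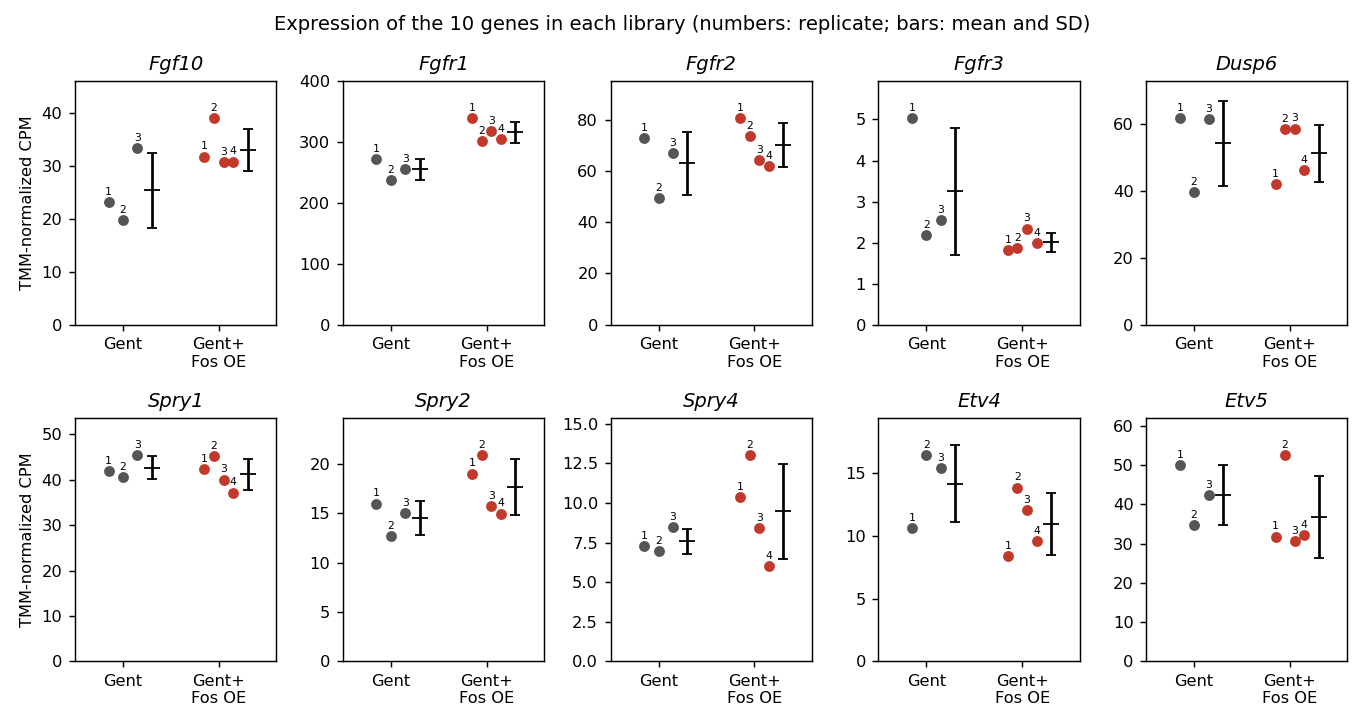
TMM-normalized CPM of each gene (vertical axes, each from 0) in the 3 Gent and 4 Gent+Fos OE libraries, with points numbered by replicate and bars for the mean and SD. The groups are apart only for Fgfr1, at 238 to 272 CPM against 301 to 339 CPM.

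Fgf10 encodes a ligand of the FGF7 subfamily that signals mainly through the b isoforms of FGFR2 and FGFR1. On mm10 the gene (ENSMUSG00000021732) lies on chromosome 13 from 118669791 to 118792115, and 2.67% of its exonic bases lie within other genes. Its level was 31.7, 39.0, 30.7 and 30.8 CPM in Gent+Fos OE and 23.1, 19.8 and 33.4 CPM in Gent. Gent replicates 1 and 2 lay below all of the Gent+Fos OE libraries and Gent replicate 3 lay within their range. The means were 33.0 ± 3.98 CPM (SD, n = 4) and 25.4 ± 7.09 CPM (SD, n = 3). The log2 fold change was 0.38 (SE 0.19, 95% interval -0.03 to 0.79, adjusted p = 0.233 in edgeR's quasi-likelihood test, exact permutation p = 0.143). Gent replicate 2 had the lowest value, and without it the log2 fold change was 0.22, while without Gent replicate 3 it was 0.63. In limma-voom with sample quality weights it was 0.05, with an adjusted p of 0.795 (0.134 to 0.795 over the alternative fits).

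Fgfr1 was the member with the highest level and the one whose groups did not overlap, a state shared by 23.4% of all tested genes. The gene (ENSMUSG00000031565) lies on chromosome 8 from 25513654 to 25575718, with 1.66% of its exonic bases shared with other genes. It stood at 339, 301, 318 and 304 CPM in Gent+Fos OE and at 272, 238 and 256 CPM in Gent. The lowest Gent+Fos OE library was thus above the highest Gent library. The means were 316 ± 17.2 CPM (SD, n = 4) and 255 ± 17.0 CPM (SD, n = 3), with a log2 fold change of 0.31 (SE 0.12, 95% interval 0.05 to 0.57). The exact permutation p was 0.0286, the smallest possible, and the adjusted p over all genes was 0.159 in edgeR's quasi-likelihood test. With each library's gene length trend taken out, the log2 fold change was 0.03 (95% interval -0.21 to 0.28, adjusted p = 0.876). The union of its exons is 9875 bases long. Limma-voom with sample quality weights, which counts less consistent libraries for less, gave an adjusted p of 0.0217, the lowest of the 17 distinct alternative fits (up to 0.891), and that p did not pass 0.01.

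Fgfr2, the receptor for FGF10 in its epithelial isoform, differed by less than the spread between libraries. The files place it (ENSMUSG00000030849) on chromosome 7 from 130162451 to 133123350, with 3.04% of its exonic bases shared, and the counts do not separate its isoforms. It stood at 80.6, 73.7, 64.4 and 62.0 CPM in Gent+Fos OE and at 72.8, 49.3 and 66.9 CPM in Gent. The groups overlapped, with Gent replicate 2 below the rest. Gent+Fos OE over Gent, its log2 fold change was 0.16 (SE 0.16, 95% interval -0.2 to 0.51, exact permutation p = 0.457). It was 0.00 without Gent replicate 2, 0.27 without Gent replicate 1, 0.08 without Gent+Fos OE replicate 1 and -0.11 with the length trend taken out, so its direction was not fixed by these data.

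Fgfr3 had the lowest level of the 10 genes and the most uneven values in Gent. The gene (ENSMUSG00000054252) lies on chromosome 5 from 33721674 to 33737068. Its counts were 56, 61, 74 and 56 in the Gent+Fos OE libraries and 147, 68 and 88 in the Gent libraries, which gave 1.82, 1.87, 2.34 and 2.0 CPM against 5.03, 2.18 and 2.54 CPM. Gent replicate 1 held the highest value, and Gent replicate 2 lay within the Gent+Fos OE range and replicate 3 just above it. In the fit, Fgfr3 had a log2 fold change of -0.69 (SE 0.32, 95% interval -1.4 to 0.01, adjusted p = 0.211 in edgeR's quasi-likelihood test, exact permutation p = 0.0571). Without Gent replicate 1 it was -0.23, and without Gent replicate 2 it was -0.92. With the length trend taken out it was -0.81 (95% interval -1.45 to -0.18), with an adjusted p of 0.132 in that fit and of 0.132 to 0.608 over the 17 distinct alternative fits.

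Levels of different genes can be set side by side only per length, so RPKM (CPM divided by the kilobases of exon) was computed. In Gent the order from high to low was Fgfr1 at 25.8 RPKM, Dusp6 at 17.3, Spry1 at 14.7, Etv5 at 10.3, Spry2 at 6.96, Fgfr2 at 6.1, Fgf10 at 5.52, Etv4 at 4.56, Spry4 at 1.59 and Fgfr3 at 0.454 RPKM. Neighbours in that order overlapped between libraries for Dusp6 and Spry1, Spry2 and Fgfr2, Fgfr2 and Fgf10, and Fgf10 and Etv4, so their order was not resolved. Fgfr1 stood clear of Dusp6, and Spry4 and Fgfr3 stood clear at the low end. In Gent+Fos OE the order was the same except that Fgf10 (7.18 RPKM) and Fgfr2 (6.8 RPKM) changed places, and the libraries of those 2 genes overlapped. Fgfr1 was again clear at the top with 32.0 RPKM and Fgfr3 at the bottom with 0.28 RPKM. In Gent+Fos OE, Dusp6, Spry1, Etv5, Spry2, Fgf10 and Fgfr2 overlapped from neighbour to neighbour, as did Etv4 and Spry4.

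**Figure D2:**
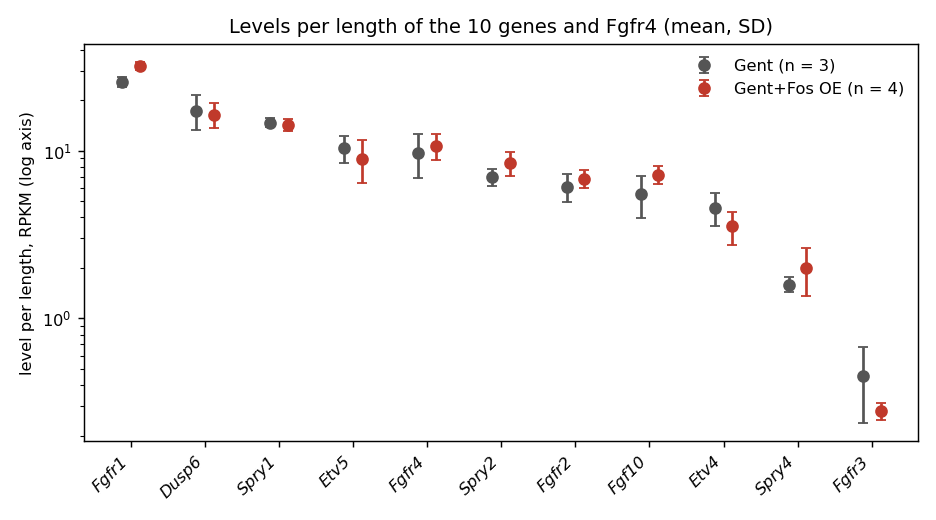
Mean level per length in RPKM (logarithmic vertical axis) of the 10 genes and of Fgfr4 in Gent (grey, n = 3) and Gent+Fos OE (red, n = 4), with bars for the SD. Fgfr1 is highest in both groups, at 25.8 and 32.0 RPKM, and Fgfr3 is lowest, at 0.454 and 0.28 RPKM.

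Fgfr4, the receptor gene of the family that is not among the 10, was taken in to see how the receptor transcripts divided. Of the summed RPKM of Fgfr1 to Fgfr4, Fgfr1 made up 64.3 ± 3.14% in Gent+Fos OE (SD, n = 4) and 61.4 ± 3.89% in Gent (SD, n = 3; exact permutation p = 0.286). Fgfr4 made up 21.5 ± 2.57% and 23.0 ± 6.85%, and Fgfr2 13.6 ± 0.734% and 14.5 ± 2.67%. The share of Fgfr3 was 0.466, 0.519, 0.673 and 0.611% in the Gent+Fos OE libraries and 1.68, 0.741 and 0.821% in the Gent libraries. These groups did not overlap (exact permutation p = 0.0286, and 0.114 after Benjamini-Hochberg adjustment over the 4 receptor shares). In CPM the groups overlapped for Fgfr3, and they did not overlap for 23.4% of all tested genes. The share of Fgfr3 rests on 56 to 147 counts per library.

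None of the Sprouty genes passed the test. Spry1 (ENSMUSG00000037211, chromosome 3 from 37639947 to 37644598) stood at 42.4, 45.2, 40.1 and 37.2 CPM in Gent+Fos OE and at 42.0, 40.6 and 45.5 CPM in Gent. These were the most even values among the 10 genes. The log2 fold change of Spry1 was -0.05 (SE 0.12), and its 95% interval of -0.32 to 0.22 bounds the difference that these libraries leave possible. It was 0.03 with the length trend taken out and ran from -0.1 (without Gent+Fos OE replicate 2) to 0.00 (without Gent replicate 3), so its sign was not fixed.

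Spry2 (ENSMUSG00000022114, chromosome 14 from 105891947 to 105896819), whose upstream stretch is printed above, stood at 19.0, 20.9, 15.7 and 14.9 CPM in Gent+Fos OE and at 16.0, 12.6 and 15.02 CPM in Gent. Gent+Fos OE replicates 1 and 2 lay above every Gent library, while replicates 3 and 4 lay within the Gent range. Its log2 fold change was 0.28 (SE 0.17, 95% interval -0.09 to 0.64, exact permutation p = 0.257), and it was 0.18 without Gent+Fos OE replicate 2 and also without Gent replicate 2.

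Spry4 (ENSMUSG00000024427, chromosome 18 from 38586247 to 38601415) had the widest spread relative to its mean within Gent+Fos OE, at 10.4, 13.0, 8.42 and 6.02 CPM, against 7.29, 6.99 and 8.47 CPM in Gent. The Gent+Fos OE libraries lay on both sides of the Gent libraries. The log2 fold change was 0.32 (SE 0.24, 95% interval -0.22 to 0.86, exact permutation p = 0.371), and it was 0.12 without Gent+Fos OE replicate 2 and 0.48 without replicate 4.

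Dusp6 (ENSMUSG00000019960, chromosome 10 from 99263231 to 99267489), the ERK phosphatase gene with 6 ETS cores in its upstream stretch, stood at 41.9, 58.3, 58.6 and 46.2 CPM in the Gent+Fos OE libraries. In the Gent libraries it stood at 61.7, 39.5 and 61.3 CPM. Gent held both the lowest and the highest value, and the Gent+Fos OE libraries lay between them. Dusp6 had a log2 fold change of -0.08 (SE 0.19, 95% interval -0.49 to 0.33, exact permutation p = 0.83). Without Gent replicate 2 it was -0.27, and without Gent replicate 1 or 3 it was 0.02. It was 0.00 without Gent+Fos OE replicate 1, -0.15 without replicate 2 or 3, -0.04 without replicate 4, and -0.02 with the length trend taken out.

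**Figure D3:**
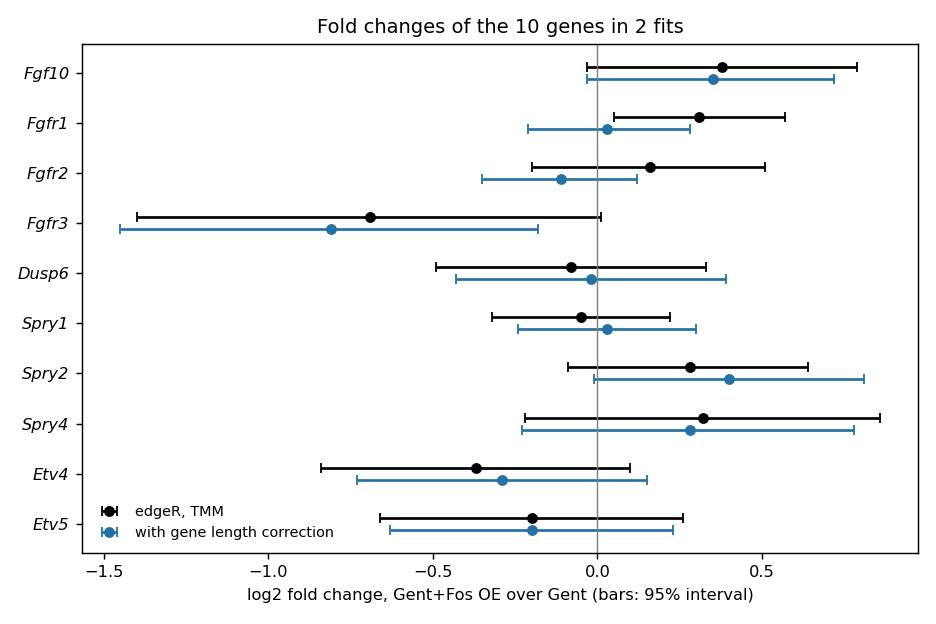
Log2 fold changes of Gent+Fos OE over Gent (horizontal axis) with 95% intervals for each gene, without (black) and with (blue) the gene length trend taken out. Fgfr1 moves from 0.31 to 0.03, and with the trend taken out only the interval of Fgfr3 lies wholly on 1 side of 0.

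Etv4 and Etv5, ETS genes of the PEA3 group, had lower means in Gent+Fos OE, and neither passed the test. Etv4 (ENSMUSG00000017724, chromosome 11 from 101769742 to 101785371) stood at 8.37, 13.8, 12.1 and 9.55 CPM in Gent+Fos OE and at 10.6, 16.4 and 15.4 CPM in Gent. Gent replicates 2 and 3 lay above all of the Gent+Fos OE libraries, and Gent replicate 1 lay among them. Etv4 had a log2 fold change of -0.37 (SE 0.21, 95% interval -0.84 to 0.1, adjusted p = 0.3 in edgeR's quasi-likelihood test, exact permutation p = 0.229). It was -0.54 without Gent replicate 1, the lowest of the alternative fits, and -0.25 without Gent replicate 2. With the length trend taken out it was -0.29, and with a replicate block besides it was -0.24, the highest.

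Etv5 (ENSMUSG00000013089, chromosome 16 from 22381309 to 22439719) stood at 31.8, 52.6, 30.7 and 32.1 CPM in Gent+Fos OE and at 49.9, 34.7 and 42.4 CPM in Gent. Gent+Fos OE replicates 1, 3 and 4 lay below every Gent library, and replicate 2 lay above every one. The log2 fold change over all libraries was -0.2 (SE 0.21, 95% interval -0.66 to 0.26, exact permutation p = 0.371). It was -0.07 without Gent replicate 1, -0.33 without Gent replicate 2 and -0.13 without Gent+Fos OE replicate 3. Without Gent+Fos OE replicate 2 it was -0.43, with an unadjusted p of 0.0244 and an adjusted p of 0.258 in edgeR's quasi-likelihood test (0.106 to 0.851 over the 17 distinct alternative fits).

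A few single libraries set much of the spread of these genes. Gent+Fos OE replicate 2 was the highest of its group for Fgf10, Spry1, Spry2, Spry4, Etv4 and Etv5, that is 6 of the 10, and it was the highest of its group for 28.8% of all tested genes. Gent replicate 2 was the lowest of its group for 9 of the 10, with Etv4 as the exception, and for 41.9% of all tested genes. The genes share libraries, so these counts are not independent of each other.

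**Figure D4:**
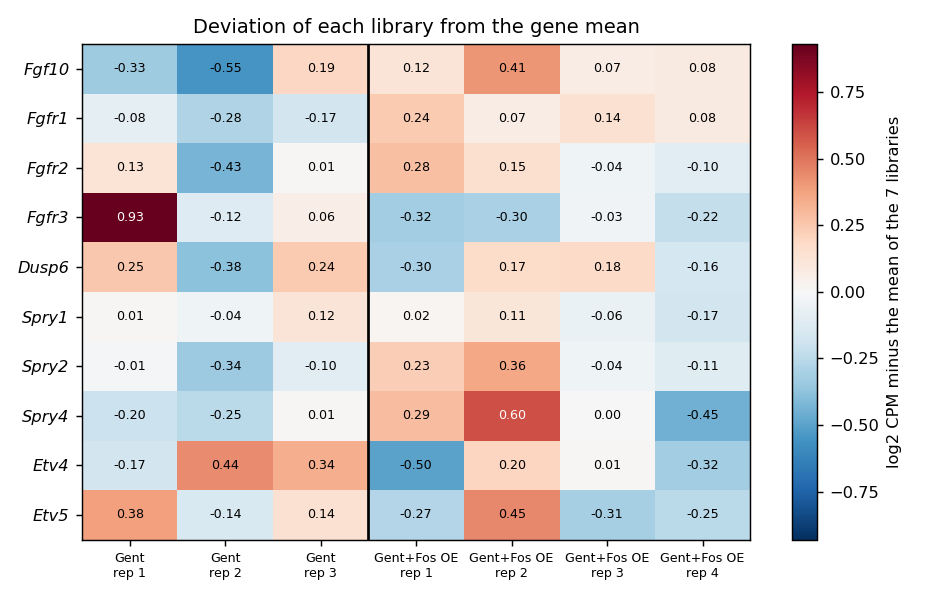
Deviation of each library (columns) from the mean of the 7 libraries for each gene (rows), in log2 CPM, with higher values in red and lower values in blue. The value farthest from 0 is Fgfr3 in Gent replicate 1 at 0.93, followed by Spry4 in Gent+Fos OE replicate 2 at 0.6, Fgf10 in Gent replicate 2 at -0.55 and Etv4 in Gent+Fos OE replicate 1 at -0.5.

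The pathway was read from 8 lists with 135 genes in all, the 10 genes among them, of which 134 were matched and 125 were tested. None was called (0.414% of all tested genes), 1 of 125 had an adjusted p under 0.05 in edgeR's quasi-likelihood test (1.86% of all tested genes), and 86 of the 125 had higher means in Gent+Fos OE, as did 8563 of all 17155 genes, with a median log2 fold change of 0.18. At an unadjusted p under 0.05 and a log2 fold change over 0.25, 24 of 125 were higher, against 11.1% of all tested genes. At the same limits in the other direction, 5 of 125 were lower, as were 2298 of all 17155 genes. Without the 10 genes, 115 were tested, 81 had higher means, the median was 0.19 and 23 were higher at those limits. The count of 24 changed with the libraries used, as did the share of all genes. It was 11 without Gent+Fos OE replicate 2 (7.14% of all genes in that fit) and 14 without Gent+Fos OE replicate 1 (7.29%). Without Gent replicate 1 it was 39 (16.5%). It was 19 without Gent+Fos OE replicate 3 (7.76%) and 24 without Gent+Fos OE replicate 4 (9.48%). Without Gent replicate 2 it was 21 (9.48%), and without Gent replicate 3 it was 18 (9.17%).

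Among the ligands 9 of 16 had higher means (median log2 fold change 0.07, and -0.06 to 0.09 over the fits that leave out 1 library, lowest without Gent+Fos OE replicate 3), and Fgf4 and Fgf15 had at most 3 counts in any library. Fgf7, the mesenchymal ligand closest to Fgf10, stood at 10.3 ± 2.8 CPM in Gent+Fos OE and 17.2 ± 4.54 CPM in Gent (log2 fold change -0.74, SE 0.24), while Fgf10 had the opposite sign. Their adjusted p-values in edgeR's quasi-likelihood test were 0.119 and 0.233, and the difference between the 2 genes was not tested. Fgf1 (log2 fold change 0.63) and the intracellular Fgf14 (0.62, and 0.41 without Gent replicate 2) had higher means, and the metabolic hormone gene Fgf21 (-1.16) a lower one at 0.666 CPM against 1.49 CPM.

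Among receptors and co-receptors 13 of 19 had higher means (median 0.16, and 0.09 with the length trend taken out or without Gent+Fos OE replicate 1). The lowest unadjusted p-values were those of Flrt1 (log2 fold change 0.75) and Flrt2 (0.57), genes of transmembrane proteins that bind FGF receptors, and both were among the 4 of 19 genes whose groups did not overlap, against 23.4% of all tested genes. Flrt2 stood at 157 ± 6.92 CPM against 106 ± 35.8 CPM, and Flrt1 at 16.3 ± 1.75 CPM against 9.7 ± 3.48 CPM. Without Gent replicate 2 their log2 fold changes were 0.47 (Flrt1) and 0.31 (Flrt2).

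Of the heparan sulfate enzymes 8 of 13 had higher means (median 0.13), among them the sulfotransferase genes Ndst1 (log2 fold change 0.55) and Hs3st3b1 (0.47) and the epimerase gene Glce (0.37), whereas the heparanase gene Hpse had a lower one (-0.4). With the length trend taken out, 6 of 13 had higher means and the median was -0.01, with Ndst1 at 0.36. Without Gent replicate 2 the median was 0.07, with Ndst1 at 0.36, Hs3st3b1 at 0.29 and Glce at 0.15. Without Gent replicate 1 it was 0.26, with Glce at 0.57, and without Gent+Fos OE replicate 1 it was 0.08.

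In the RAS-ERK cascade 16 of 22 genes had higher means (median 0.18). The scaffold gene Ksr1 stood at 92.1 ± 13.4 CPM against 64.8 ± 2.72 CPM (log2 fold change 0.51, SE 0.14, adjusted p = 0.0901 in edgeR's quasi-likelihood test). The kinase gene Braf (0.52) and the exchange factor gene Sos2 (0.48) had higher means, and Hras a lower one (-0.55). With the length trend taken out, Braf was at 0.18, Sos2 at 0.29 and Ksr1 at 0.34, and the median of the list was 0.08. Without Gent replicate 2, Braf was at 0.27, Sos2 at 0.25 and Hras at -0.29, and the median was 0.06. Without Gent replicate 1 the median was 0.33.

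The list of ERK feedback inhibitors held Spry1, Spry2, Spry4 and Dusp6 beside genes outside the 10, and no difference between those parts was tested. Of its 18 tested genes, 15 had higher means, 8 of them at an unadjusted p under 0.05 and a log2 fold change over 0.25 (11.1% of all tested genes), and the median log2 fold change was 0.34. The median was 0.2 without Gent replicate 2. The phosphatase gene Dusp5, whose product acts on ERK in the nucleus, stood at 29.1, 61.5, 38.6 and 32.7 CPM in Gent+Fos OE and at 23.4, 20.3 and 22.4 CPM in Gent. All Gent+Fos OE libraries were above the Gent libraries, and the groups did not overlap for 23.4% of all tested genes. The log2 fold change of Dusp5 was 0.88 (SE 0.24, adjusted p = 0.0859 in edgeR's quasi-likelihood test), and 0.6 without Gent+Fos OE replicate 2. Of its exonic bases, 22.1% are shared with other genes. Dusp4, another nuclear phosphatase gene, stood at 27.5 ± 5.11 CPM against 16.8 ± 6.65 CPM, a log2 fold change of 0.72, and 0.41 without Gent replicate 2. The GTPase-activating protein genes Nf1 (0.58) and Rasa2 (0.62) were at 0.19 and 0.23 with the length trend taken out. In that fit 5 of the 18 inhibitors were higher at an unadjusted p under 0.05, against 8.14% of all genes in the same fit. That count was 5 without Gent replicate 2 (9.48% of all genes), 4 without Gent+Fos OE replicate 1 (7.29%), 4 without replicate 2 (7.14%) and 11 without Gent replicate 1 (16.5%).

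Among ERK transcriptional targets 9 of 15 had higher means (median 0.26). The median was 0.13 with the length trend taken out, 0.07 without Gent replicate 2 and 0.12 without Gent+Fos OE replicate 2. Ccnd1, the cyclin D1 gene, stood at 190 ± 61 CPM against 102 ± 43.9 CPM (log2 fold change 0.9, SE 0.3, adjusted p = 0.124 in edgeR's quasi-likelihood test). It was 0.64 without Gent replicate 2 and 1.28 without Gent replicate 1. Fosl1, an AP-1 subunit gene, stood at 1.36 ± 0.579 CPM against 0.546 ± 0.256 CPM (log2 fold change 1.31), and Ier3, a gene of the immediate early response, at 123 ± 14.3 CPM against 154 ± 33.5 CPM (-0.32). Fosl1 had 10 to 56 counts per library, and its groups overlapped. Reads on several genes were left out, and 57.2% of the exonic bases of Fosl1 and 23.4% of those of Ccnd1 are shared with other genes. Ier3 was at -0.13 without Gent replicate 2 and at -0.17 with the length trend taken out.

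Of the ETS family 14 of 21 had higher means (median 0.12), and Etv2 had at most 3 counts in any library. With the length trend taken out 10 of 21 had higher means and the median was -0.02. It was 0.04 without Gent replicate 2 or without Gent+Fos OE replicate 2, and at most 0.18 over the fits that leave out 1 library. Ehf, an epithelial ETS factor gene, was the pathway gene with an adjusted p under 0.05 in edgeR's quasi-likelihood test. It stood at 8.76, 10.8, 10.9 and 8.09 CPM in Gent+Fos OE and at 4.76, 5.03 and 4.22 CPM in Gent. Its groups did not overlap, a state shared by 23.4% of all tested genes. Its log2 fold change was 1.05 (SE 0.18, adjusted p = 0.0212 in edgeR's quasi-likelihood test, 2.5e-05 to 0.0966 over the alternative fits). Spi1, the macrophage factor gene, stood at 42.9 ± 14 CPM against 81.3 ± 19.2 CPM (log2 fold change -0.92), beside the macrophage markers given above. Ets1 (0.43) and Elf1 (0.44) had higher means. Without Gent replicate 2 they were at 0.24 and 0.17, Elf1 was at 0.71 without Gent replicate 1, and Ets1 was at 0.24 with the length trend taken out.

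Of the other MAPK phosphatases 6 of 8 had higher means (median 0.15). Dusp10 had a log2 fold change of 0.51, Dusp14 and Dusp16 of 0.24, and Dusp2 of -1.04. Dusp16 was at 0.05 without Gent replicate 2, 0.37 without Gent replicate 1 and 0.08 with the length trend taken out. Dusp14 was at 0.09 without Gent replicate 1, 0.16 without Gent+Fos OE replicate 2 and 0.4 with the length trend taken out. The list's median was 0.03 without Gent replicate 2 and 0.08 with the length trend taken out.

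**Figure D5:**
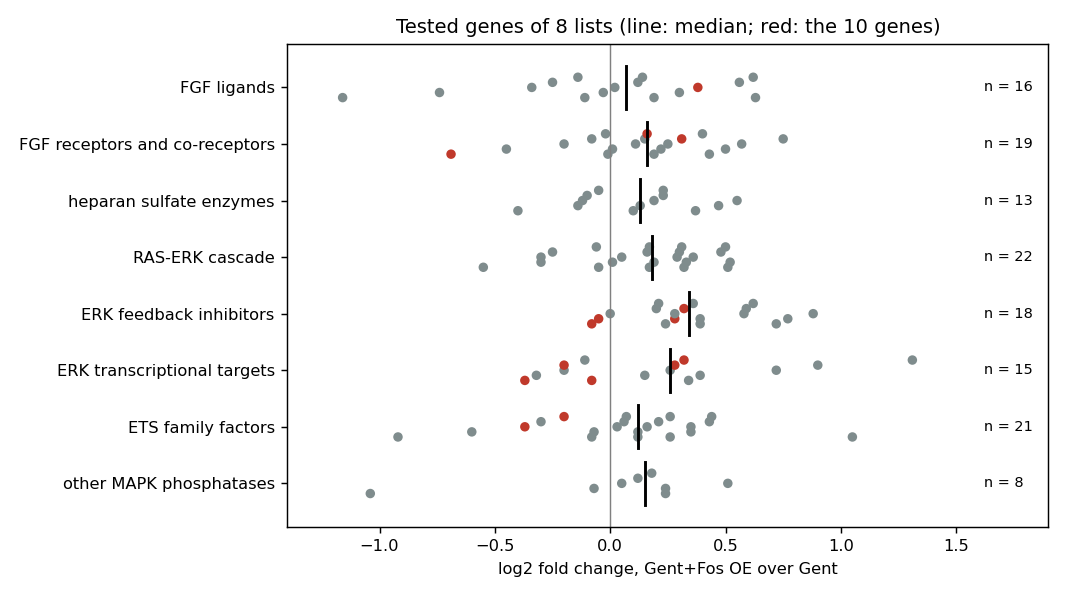
Log2 fold change of Gent+Fos OE over Gent (horizontal axis) of each tested gene in 8 pathway lists, with vertical lines for the medians and red points for genes among the 10. Medians run from 0.07 for the ligands to 0.34 for the ERK feedback inhibitors, and the red points lie on both sides of 0.

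The tested genes with profiles most like each of the 10 were found by the root mean square difference of log2 CPM over the 7 libraries after centring, among 12368 or 12369 genes with at least 5 CPM on average. For Fgf10 these were Bbs1 (0.0552) and Slc9a2 (0.086), for Fgfr1 Inpp5f (0.0388) and Zscan18 (0.048), for Fgfr2 Zfp521 (0.048) and Fbxo45 (0.0487), and for Fgfr3 Coro2a (0.14) and Cx3cr1 (0.141). For Spry1 they were Ctbp1 (0.0308) and Grsf1 (0.0365), for Spry2 Hmgxb3 (0.0397) and Dab2ip (0.053), for Spry4 Tmem30b (0.103) and Arhgap8 (0.105), and for Dusp6 Epm2a (0.0647) and Dbf4 (0.0806). For Etv4 they were Bspry (0.114) and Cfi (0.116), and for Etv5 Kif23 (0.103) and Kif20a (0.109). No member of the 10 was among these nearest genes.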

How the data were processed

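RNA sequencing of 7 libraries of P2 mouse utricles, 12 pooled utricles each, was compared between Gent+Fos OE (n = 4) and Gent (n = 3). The values deposited by the authors are raw read counts per gene, not normalized. Per the file headers they were made with featureCounts 2.0.6 on an mm10 annotation, with no strand setting, multi-mapping reads and reads on several genes left out, and each read of a pair counted on its own. The submitters' processing notes list Trim Galore 0.6.10, HISAT2 2.2.1 and DESeq2 1.34.0, while the paper's methods name mm39 and 3 replicates per condition. All 7 libraries were used, and coordinates are those of the files. Without strand, reads of overlapping antisense genes cannot be told apart.

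Symbols were given to 24497 of 32285 genes whose Ensembl ID had the same name in GENCODE vM39 and in RefSeq GRCm38.p6 at that place. Spry3 was not matched and was not analysed here. Genes were kept by filterByExpr (17155 genes), normalized by TMM and compared with edgeR 4.0.16 (quasi-likelihood F-test, no covariate) in R 4.3.3, with Benjamini-Hochberg adjustment over all tested genes. Calls needed an adjusted p below 0.01 together with an absolute log2 fold change above 0.25. The two-sided exact permutation test compared mean log2 CPM (pseudocount 0.5) over the 35 splits. RPKM used the union of exons in the files. Alternatives used DESeq2 1.42.0, limma 3.58.1, RLE or upper quartile normalization, other filters, a gene length correction (loess span 0.3), the replicate number as a term, and leaving out each library. Figures were drawn in Python 3.11.15 with matplotlib 3.10.9.

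The 10 genes, the lists and the tests were chosen with earlier results of these data known. Named genes are the 10, the 4 genes of lowest unadjusted p on each list, the 2 nearest profiles of each of the 10, and Fos. Ocm, Otog, Sox2, Fgf4, Fgf15, Etv2 and Fgf17 were added as markers, for their low counts or for calls in an alternative, and Fgfr4 to complete the receptor family, all after their values were seen. The labels do not say that libraries came from separate cultures or litters, so p-values measure the spread between these pools. No pair of libraries of the same group matched within sampling noise, and pairs across the groups were not compared in this way.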

Additional observations from a re-analysis of the deposited data

Results flagged for a closer look

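In the Gent+Fos OE group of 4 libraries, 40 genes were checked for a library far from the other 3 by Dixon's ratio, for which chance gives about 1 flag in 20 groups. Etv5 stood at 52.57 CPM in replicate 2, against 30.71 to 32.08 CPM in the others. Fgf10 stood at 38.98 CPM in replicate 2, against 30.68 to 31.72 CPM. Ets1 stood at 48.1 CPM in replicate 1, against 54.81 to 55.63 CPM, and Fos at 167 CPM in replicate 3, against 148.8 to 151.1 CPM. The Gent group of 3 libraries was not checked in this way.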

How the results depend on the processing

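The alternatives made 17 distinct fits, since 3 libraries per group is the fit without Gent+Fos OE replicate 4. Each called 0 of the 10 genes, leave-one-out fits included. The lowest adjusted p of a member was 0.0217 (Fgfr1, limma-voom with sample quality weights). Among all pathway lists the count of called genes was 0 in edgeR (0.414% of all genes in that fit) and 1 in DESeq2 (2.86%). It was 1 with no filter on low counts (0.819%) and 6 with sample quality weights (5.6%). The gene called by DESeq2 and without the filter was Ehf, and the weights added Fgf17, Ksr1, Rasa2, Nf1 and Ccnd1. DESeq2 also gave an adjusted p under 0.05 for Dusp5 (0.0109), Spi1 (0.0131), Ksr1 (0.0175) and Ccnd1 (0.0343). Rasa2 (0.0354), Nf1 (0.0386), Flrt1 (0.0428) and Dusp2 (0.0434) were under that limit in DESeq2 as well. Fgf17 had 0 to 16 counts per library, with a log2 fold change of 3.9 under the weights and 0.56 in edgeR. The cause was not tested. The weights also gave log2 fold changes of 0.05 for Fgf10, 0.03 for Fgfr2, -0.43 for Fgfr3, 0.17 for Spry2, 0.1 for Spry4, -0.14 for Spry1, -0.22 for Dusp6 and -0.34 for Etv5, and a median of -0.06 over the 10 genes. Among the pathway genes they gave 0.36 for Ndst1, 0.2 for Hs3st3b1, 0.27 for Sos2, -0.14 for Ier3, 0.12 for Dusp14 and 0.07 for Dusp16. List medians under the weights were -0.01 for ligands, 0.07 for receptors, 0.09 for heparan sulfate enzymes, 0.1 for the RAS-ERK cascade, 0.22 for feedback inhibitors, 0.12 for ERK targets, 0.11 for ETS factors and 0.1 for other phosphatases. Over all genes, edgeR called 23 higher and 48 lower, DESeq2 273 and 327, no filter 63 and 141, sample quality weights 531 and 430, the length correction 35 and 95, and leave-one-out 2 to 45 higher and 3 to 93 lower. With a replicate block the counts were 0 and 0, with 0 members called, and 17 and 31 with the block and the length correction. Same-numbered libraries of the groups deviated together with correlations of 0.09, -0.06 and 0.06, so the block describes only a shared number. Signs differed from the reported ones, or the value rounded to 0, in 3 fits for Fgfr2, 4 for Spry1 and 4 for Dusp6. TPM in place of RPKM raised the log2 ratio of group means by a median of 0.19 over all tested genes, and signs that differ only by that scaling (Spry1 and Dusp6) are not read as a change. At 4 and 3 libraries, log2 fold changes of the 10 genes have SEs of 0.12 to 0.32, and Fgfr3 rests on few counts.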
